A study of Homo sapiens with 6 samples.

Results

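The genes followed here are 8 collagen chains: COL1A1, COL1A2, COL3A1, COL5A1 and COL5A2 of the fibril-forming collagens I, III and V, and COL6A1, COL6A2 and COL6A3 of collagen VI. They were chosen by name, as a family, with the differences between the sorted populations already known, and the 8 symbols listed were all found among the 15024 genes of the deposited table. Their differences between the populations are therefore given as a description. The samples were MDA-MB-231 cells, an established line from a human triple-negative breast cancer, labelled Mll3-null (MLL3 is the histone methyltransferase encoded by KMT2C) and grown for 14 days with 10 µM forskolin, which raises cAMP and so activates protein kinase A. Both populations carried surface CD44 and differed in CD104, the integrin beta-4 protein: 3 libraries came from CD44+CD104high cells (CD104high) and 3 from CD44+CD104-/low cells (CD104low). The series' design names the CD104high state hybrid epithelial and mesenchymal and the CD104low state mesenchymal. Both groups shared the Mll3-null label and the forskolin, and neither an MLL3 wild-type nor an untreated library was analysed here. The labels call the replicates biological and do not say whether the null cells are 1 clone.

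Collagens are built from 3 chains wound into a triple helix, in which glycine returns at each 3rd residue. Collagens I, III and V form the banded fibrils of connective tissue: collagen I is their bulk, usually with a pair of COL1A1 chains to each COL1A2 chain, collagen III is a trimer of COL3A1 chains only, and collagen V, commonly with a pair of COL5A1 chains to each COL5A2 chain, helps fibrils to start and limits their width. Collagen VI joins the COL6A1, COL6A2 and COL6A3 chains in equal numbers and makes beaded microfilaments close to the cell surface, where it meets basement membranes. In breast tumours most fibrillar collagen comes from fibroblasts, but carcinoma cells make collagen as well.

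The glycine rule can be read from the coding sequences, where a codon of the form GGN stands at each 3rd position. The longest unbroken in-frame run of such repeats was 338 in COL1A1 and COL5A1, 339 in COL1A2 and COL5A2, and 343 in COL3A1, but 87 in COL6A1 and COL6A2 and 45 in COL6A3. Of 13533 coding genes in the table with a full coding transcript in GENCODE 29, 11 had a run of at least 100 repeats, all of them collagens, and the 5 fibrillar chains described here were among them. The run took up 69.3% of the codons of COL1A1 and 4.25% of those of COL6A3. The first 6 repeats of the run follow for 7 of the chains, 5′ to 3′, to show the pattern the chains share, with the GGN codons in capitals. Collagen VI differs in the length of the unbroken run, which so short a stretch does not show. A run ends at any break in the repeat, so its length need not be that of the triple helix.
COL1A1: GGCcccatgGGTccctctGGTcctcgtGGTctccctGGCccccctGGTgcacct
COL1A2: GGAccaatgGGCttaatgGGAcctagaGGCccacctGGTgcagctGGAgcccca
COL3A1: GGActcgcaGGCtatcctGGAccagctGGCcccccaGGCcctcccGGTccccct
COL5A1: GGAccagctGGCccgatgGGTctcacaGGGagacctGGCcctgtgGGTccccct
COL5A2: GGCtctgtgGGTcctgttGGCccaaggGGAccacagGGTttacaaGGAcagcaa
COL6A2: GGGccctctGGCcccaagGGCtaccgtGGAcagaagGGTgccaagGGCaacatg
COL6A3: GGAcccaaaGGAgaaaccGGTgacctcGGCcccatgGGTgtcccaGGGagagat

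Between 49791498 and 60069719 reads per library fell on the listed genes, and values are given as scaled reads, the authors' read counts divided by 1 factor per library. ITGB4, the gene of the sorted protein, lay between 14508 and 19435 in CD104high and between 1333 and 2273 in CD104low. KMT2C still gave 3561 to 3952 scaled reads in CD104high and 2095 to 2814 in CD104low. How the gene was made null is not in the labels, and the deposited gene total cannot show whether these transcripts are intact. Of 10 markers listed for the line, KRT8, KRT18, VIM, CD44 and EGFR were abundant in both populations. EGFR was the lowest of these in CD104low, at a mean of 9433. ITGB4, EPCAM and ERBB2 were also in the table, while ESR1 and PGR were not found in it. With limma on log2(value + 1) and Benjamini-Hochberg adjustment at 0.05, 21.8% of the 14420 genes tested were called higher and 21.6% lower in CD104high, 6257 in all. Without replicate 1 of CD104low the count was 4097. Of the 8 line markers in the table, 4 were called higher in CD104high, 0 lower, and 4 did not pass. Those called higher include ITGB4, by whose protein the populations were sorted.

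COL5A1, COL6A1, COL6A3, COL1A2 and COL6A2 were higher in CD104high, by 1.63-fold to 3.31-fold, COL3A1 was lower by 2.29-fold, and COL1A1 and COL5A2 did not pass the test. Of the 8 chains 5 were thus called higher and 1 lower, beside 21.8% and 21.6% of all genes. In 5 chains the CD104high libraries all lay above the CD104low libraries and in 2 all below, beside 27.4% and 26.9% of the genes tested. The median log2 fold change was 0.86 over the 8 chains and 0.02 over all genes tested. Since the chains were picked with this contrast in view, nothing is read from these counts. In bulk RNA, fewer cells that make a transcript and less of it per cell cannot be told apart.

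**Figure D1:**
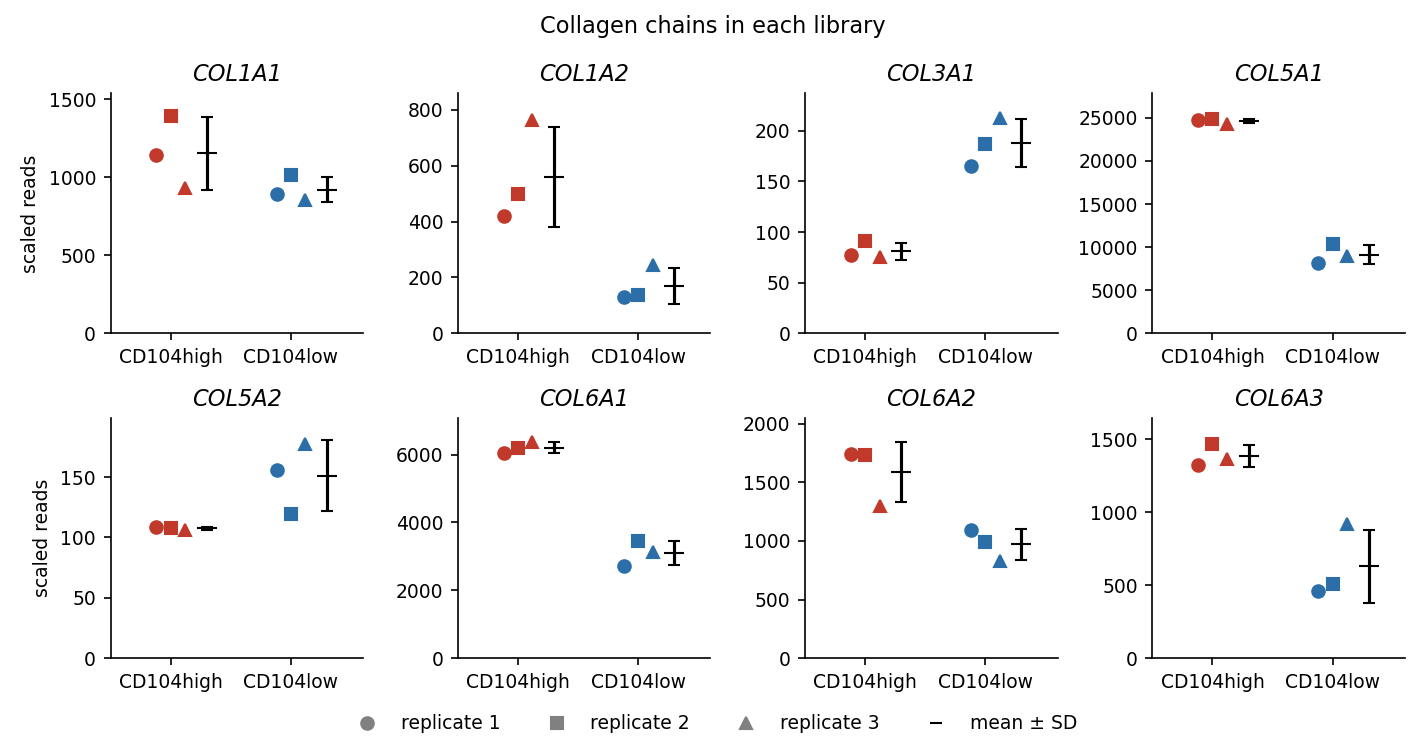
Scaled reads (vertical axes, linear, from 0) of the 8 collagen chains in the 3 CD104high (red) and 3 CD104low (blue) libraries; symbols mark the replicate number and black bars the mean ± SD. The populations overlap in COL1A1, while COL3A1 and COL5A2 are the chains with all CD104high libraries below.

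COL5A1 (ENSG00000130635.16; GRCh38, GENCODE 29, chromosome 9, 134641774 to 134844843, plus strand), the main chain of collagen V, was by far the most abundant of the 8. It was read at 24740, 24857 and 24316 in CD104high and at 8128, 10391 and 8931 in CD104low. The CD104high libraries lay within a coefficient of variation of 1.15%, against 12.5% in CD104low, and the populations were far apart. The log2 fold change was 1.44 (SE 0.09), or 1.05 after a correction for transcript length and GC content. COL5A1 made up 68.4% to 69.5% of the summed scaled reads of the 8 chains in CD104high and 58.4% to 61.9% in CD104low. Per kilobase of transcript, which allows for the lengths of the chains, its share of the summed means was 55.2% in CD104high and 45.5% in CD104low.

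COL5A2 (ENSG00000204262.14; chromosome 2, 189031896 to 189225312, minus strand), the partner chain in collagen V, went the other way. It was read at 109, 108 and 106 in CD104high and at 156, 119 and 177 in CD104low. All CD104high libraries were below all CD104low libraries, with replicate 2 of CD104low close to them. The log2 fold change was -0.46 (SE 0.19) and missed the threshold (limma adjusted p = 0.0782). It passed without replicate 2 of CD104low (-0.62, limma adjusted p = 0.0251), with quantile normalization (-0.72, 0.0186) and after length/GC correction (-0.66, 0.0266). It also passed in the authors' deposited table (-0.48, adjusted p = 0.0228). Among the settings where it missed were upper quartile scaling (limma adjusted p = 0.087) and limma without the trend (0.0557). On recovered whole reads edgeR gave an adjusted p of 0.0634 and DESeq2 one of 0.0612. Leaving out any library other than replicate 2 of CD104low gave a limma adjusted p of 0.129 to 0.239. The log2 fold change was -0.34 without replicate 3 of CD104low, so the call was not stable.

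COL3A1 (ENSG00000168542.15; chromosome 2, 188974320 to 189012746, plus strand), the only chain of collagen III, was at 77.8, 90.9 and 75.0 in CD104high and at 165, 187 and 212 in CD104low. Every CD104low library exceeded every CD104high library, and the lowest CD104low value was well above the highest CD104high value. These are low levels, resting on 74 to 103 reads in CD104high and 164 to 189 in CD104low. The log2 fold change was -1.20 (SE 0.18), and -1.40 after length/GC correction. COL3A1 and COL5A2 are neighbours that end towards each other on chromosome 2, 19149 bases apart.

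COL1A2 (ENSG00000164692.18; chromosome 7, 94394561 to 94431232, plus strand), the second chain of collagen I, had the largest fold of the 8. It was read at 421, 497 and 761 in CD104high and at 129, 138 and 245 in CD104low. Replicate 3 was the highest library in each population, so the spread was wide, with coefficients of variation of 31.9% and 37.9%. The log2 fold change was 1.73 (SE 0.29), and 1.71 after length/GC correction.

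COL1A1 (ENSG00000108821.13; chromosome 17, 50183289 to 50201632, minus strand), the first chain of collagen I, was at 1141, 1395 and 929 in CD104high and at 895, 1012 and 856 in CD104low. Replicate 3 of CD104high lay below replicate 2 of CD104low, and the populations overlapped. The log2 fold change of 0.31 (SE 0.15) did not pass (limma adjusted p = 0.117). It was 0.16 without replicate 2 of CD104high, 0.46 (limma adjusted p = 0.0177) without replicate 3 of CD104high, and -0.023 after length/GC correction, so neither its direction nor its call was stable.

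COL6A1 (ENSG00000142156.15; chromosome 21, 45981737 to 46005050, plus strand) and COL6A2 (ENSG00000142173.16; chromosome 21, 46098097 to 46132849, plus strand) encode the shorter chains of collagen VI. COL6A1 was read at 6056, 6183 and 6365 in CD104high and at 2729, 3445 and 3126 in CD104low. COL6A2 was read at 1741, 1733 and 1296 in CD104high and at 1096, 989.8 and 832 in CD104low. Both genes were separated between the populations, COL6A1 widely and COL6A2 by less. Replicate 3 was the lowest COL6A2 library in each population. Their log2 fold changes were 1.01 (SE 0.09) and 0.70 (SE 0.14), or 0.79 and 0.54 after length/GC correction.

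COL6A3 (ENSG00000163359.16; chromosome 2, 237324003 to 237414375, minus strand), the longest chain of collagen VI, was at 1325, 1468 and 1365 in CD104high and at 463, 507 and 919 in CD104low. Replicate 3 of CD104low stood apart from the other CD104low libraries but still lay below every CD104high library. The log2 fold change was 1.21 (SE 0.23), 1.51 without replicate 3 of CD104low, and 0.84 after length/GC correction.

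**Figure D2:**
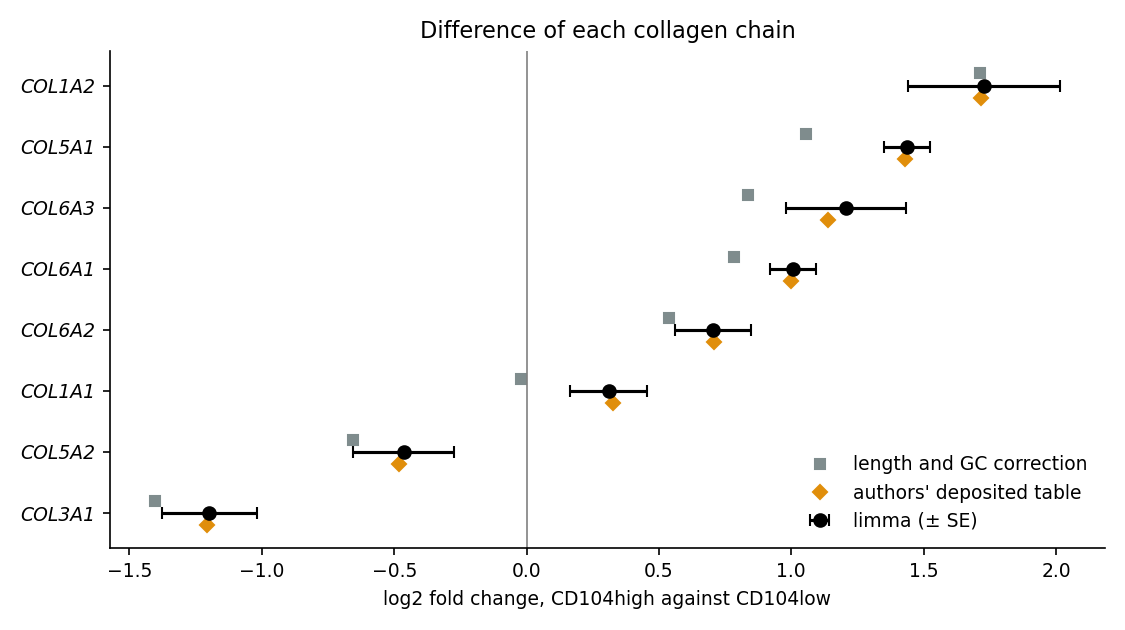
Log2 fold change of CD104high against CD104low (horizontal axis) for each chain, from limma (black, bars ± SE), limma after the length and GC correction (grey squares) and the authors' deposited table (orange diamonds). The correction moves COL1A1 from 0.31 to -0.023 and leaves COL1A2 at 1.71, while COL3A1 and COL5A2 stay below 0.

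To compare levels between chains, the scaled reads were divided by the length of 1 coding transcript per gene in GENCODE 29. These lengths ran from 3461 bases for COL6A2 to 10749 for COL6A3, and the transcript need not be the one expressed. GC content, from 41.7% for COL1A2 to 66.4% for COL6A2, was not allowed for in these levels or in the ratios between chains. In CD104high the mean level per kilobase was 2908 for COL5A1, 1463 for COL6A1, 459 for COL6A2, 172 for COL1A1, 129 for COL6A3, 103 for COL1A2, 15.2 for COL5A2 and 14.7 for COL3A1. Neighbours in this order overlapped between libraries only for COL6A3 with COL1A2 and for COL5A2 with COL3A1, besides COL1A1, whose lowest library (138) lay just above the highest of COL6A3 (137). In CD104low the order was COL5A1 (1080.2), COL6A1 (732), COL6A2 (281), COL1A1 (137), COL6A3 (58.5), COL3A1 (33.9), COL1A2 (31.5) and COL5A2 (21.3), and libraries overlapped between COL3A1 and COL1A2 and between COL1A2 and COL5A2. COL3A1 thus stood sixth in CD104low and last in CD104high.

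**Figure D3:**
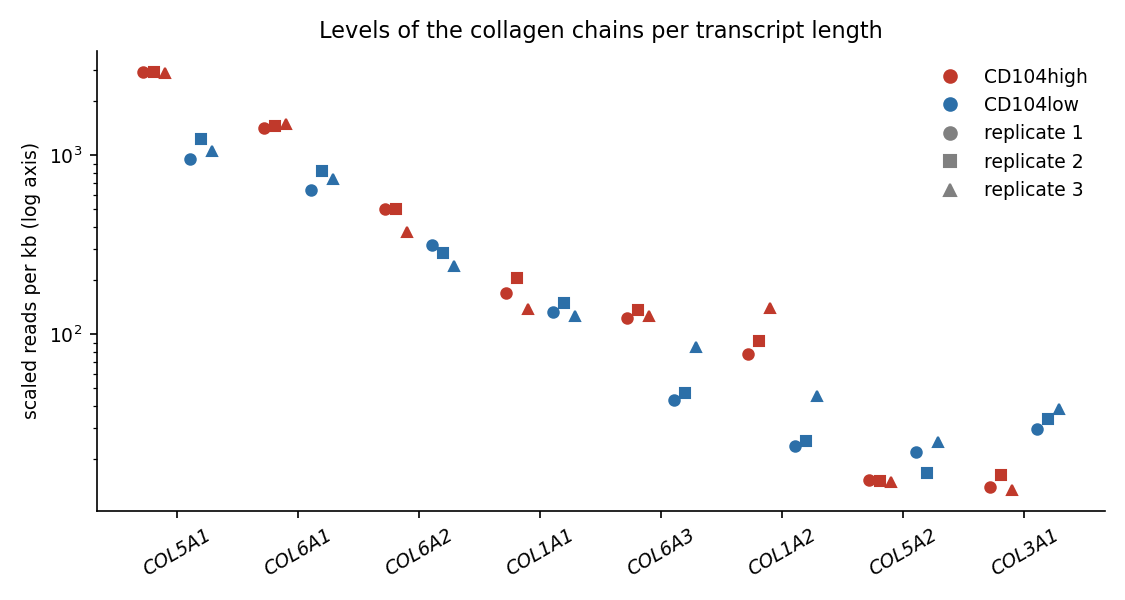
Scaled reads per kilobase of coding transcript (vertical axis, log scale) of the 8 chains in each CD104high (red) and CD104low (blue) library, ordered by the CD104high mean. COL5A1 and COL6A1 lead in both populations, and COL5A2 and COL3A1 are the chains whose CD104low libraries lie above.

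The ratio between partner chains differed between the populations, with no overlap, for collagens I and V, and overlapped for collagen VI. COL1A1 over COL1A2, per kilobase, was 2.18, 2.26 and 0.98 in CD104high and 5.59, 5.92 and 2.81 in CD104low. The ratio was lower in all CD104high libraries, and replicate 3 was the lowest in each population. COL5A1 over COL5A2 was 190, 193 and 191 in CD104high and 43.6, 72.8 and 42.1 in CD104low, so the COL5A1 transcript outnumbered that of its partner in each library and by more in CD104high. Within collagen VI, COL6A1 over COL6A2 was 2.84 to 4.01 in CD104high and 2.03 to 3.07 in CD104low, and COL6A1 over COL6A3 was 10.7 to 11.8 in CD104high and 8.63 to 17.2 in CD104low. COL6A2 over COL6A3 was 2.95 to 4.08 in CD104high and 2.81 to 7.36 in CD104low. All 3 collagen VI ratios overlapped between the populations. These ratios come from the same contrast as the single chains and were not tested. COL5A2 rested on 105 to 158 reads per library. How often ratios of other gene pairs fail to overlap was not computed.

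**Figure D4:**
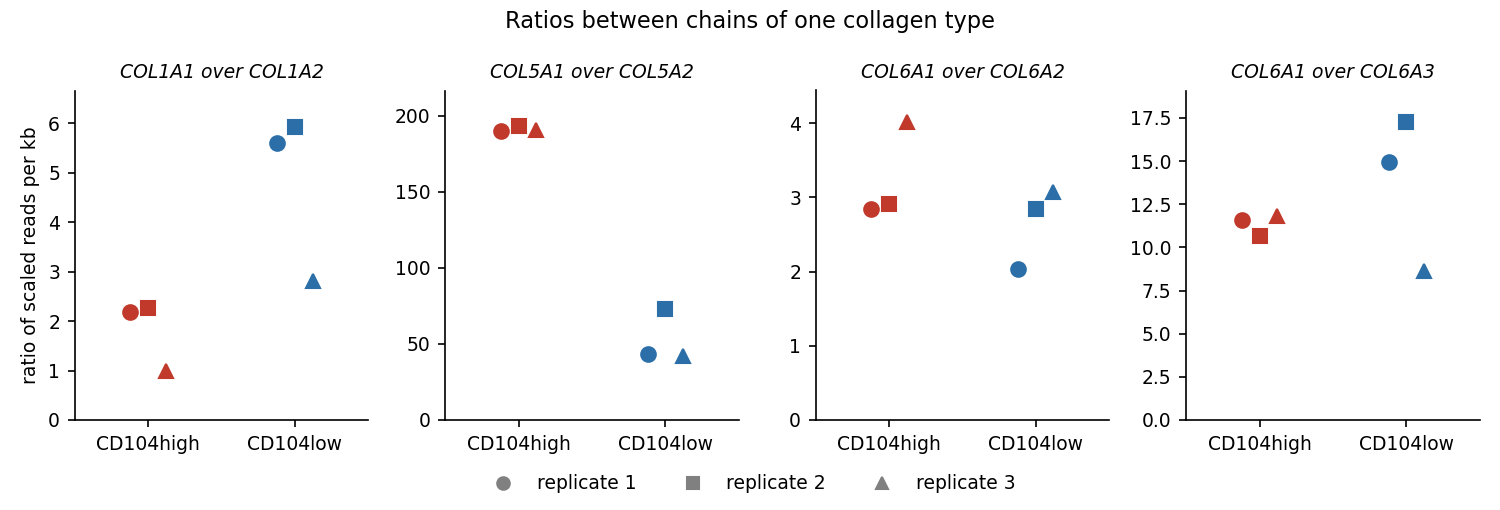
Ratio of scaled reads per kilobase (vertical axes, linear, from 0) between chains of collagens I, V and VI in each CD104high (red) and CD104low (blue) library; symbols mark the replicate number. The populations are apart for COL1A1 over COL1A2 (lower in CD104high) and COL5A1 over COL5A2 (higher), and overlap for the ratios within collagen VI that are drawn.

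Of the chains with higher levels in CD104high, COL5A1, COL6A2 and COL6A3 have a promoter in the RefSeq table used here (GRCh38.p14). The other chains, COL1A1, COL1A2, COL3A1, COL5A2 and COL6A1, are only named. The 250 bases before the start lie at chr9:134641553-134641802 on the plus strand for COL5A1 (the first of 2 entries), chr21:46097862-46098111 on the plus strand for COL6A2 and chr2:237414165-237414414 on the minus strand for COL6A3. They were searched on both strands for GGGCGG (the core of the Sp1 site), for the TATA box core TATAAA, for the CCAAT box, and for the cAMP-response element TGACGTCA and its core TGACG, which is contained in it. COL6A2 held 4 matches to GGGCGG and a TATAAA starting 32 bases before the start, COL5A1 held 2 matches to GGGCGG, and COL6A3 held none of the motifs. Among 35116 promoters of this length, 42.6% held GGGCGG and 10.7% held TATAAA, while the CCAAT box was found in 32%, TGACGTCA in 1.65% and its core TGACG in 21.2%. GC content was 74.0% for COL5A1, 79.6% for COL6A2 and 56.0% for COL6A3, and the median over all promoters was 58.0%. RefSeq and GENCODE place the starts differently, and the COL6A3 window lies largely inside the GENCODE gene, so it is not printed. The windows of COL5A1 and COL6A2 are shown for their matches, 5′ to 3′ in the direction of the gene, with the matches in capitals.
COL5A1: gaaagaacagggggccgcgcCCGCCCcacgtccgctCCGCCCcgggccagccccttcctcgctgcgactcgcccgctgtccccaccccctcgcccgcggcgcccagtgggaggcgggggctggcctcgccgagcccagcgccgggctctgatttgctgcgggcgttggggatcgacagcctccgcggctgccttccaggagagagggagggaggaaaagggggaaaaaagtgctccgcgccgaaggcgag
COL6A2: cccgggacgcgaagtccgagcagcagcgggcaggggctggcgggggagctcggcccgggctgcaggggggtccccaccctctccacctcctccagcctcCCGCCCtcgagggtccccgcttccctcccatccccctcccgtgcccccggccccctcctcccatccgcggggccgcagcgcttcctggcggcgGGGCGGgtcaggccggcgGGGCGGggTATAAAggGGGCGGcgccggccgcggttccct

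Most of the chains also share a short sequence after the stop codon. The miR-29 family is known for binding collagen transcripts, and its members have the same seed, bases 2 to 8 of the mature microRNA, printed in capitals (RefSeq, GRCh38.p14).
hsa-miR-29a-3p: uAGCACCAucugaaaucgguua
hsa-miR-29b-3p: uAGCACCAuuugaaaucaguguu
hsa-miR-29c-3p: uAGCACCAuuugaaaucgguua

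The complement of the seed, TGGTGCT, was searched in the 3′ untranslated region of 1 GENCODE 29 transcript per gene. It was present in 7 of the 8 chains and in 13.8% of 12977 genes with such a region of at least 50 bases. COL5A1 held 4 matches, COL3A1 2, and COL1A1, COL1A2, COL5A2, COL6A2 and COL6A3 1 each, while COL6A1 held none in 1037 bases. Over the chains this was 1.02 matches per kilobase, against 0.10 over all these regions. Matches stood in chains that were higher and in chains that were lower in CD104high. MicroRNA was not measured, and a match is no evidence of a working site. The first match of each chain is shown with the 14 bases before it and 1 after it, the match in capitals.
COL1A1: ggggagggaatcacTGGTGCTa
COL1A2: ttgaagaatgttgaTGGTGCTa
COL3A1: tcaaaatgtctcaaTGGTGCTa
COL5A1: aactcaatgaaaatTGGTGCTt
COL5A2: ttttcctttaatgaTGGTGCTa
COL6A2: gcccaccccgtccaTGGTGCTa
COL6A3: atgacctatcagtaTGGTGCTa

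Other chains that can join fibrils or collagen VI were few. Of 8 listed, COL11A1, COL11A2, COL24A1 and COL27A1 were in the table, and none of the 3 tested was called. After length/GC correction 1 was called lower, and their median log2 fold change went from 0.19 to -0.14. COL27A1 averaged 828 ± 167 in CD104high against 863 ± 89.9 in the other population (SD, 3 libraries each; log2 fold change -0.075, limma adjusted p = 0.723), COL24A1 at 88.4 ± 25.0 and 62.9 ± 8.74, and COL11A2 at 31.2 ± 4.91 and 27.6 ± 6.47. COL11A1, which can take a place in collagen V fibrils, was read at a mean of 9.96 and 7.37 and did not pass the filter on low values. COL2A1, COL5A3, COL6A5 and COL6A6 were not found in the table. Of 28 chains of the remaining collagen types, 17 were tested, 9 rose and 0 fell, with a median log2 fold change of 0.85. After length/GC correction 8 rose and 2 fell, with a median of 0.57. Here and for the lists that follow, the shares of all genes tested that were called higher and lower, 21.8% and 21.6%, are the background to the counts. COL4A4, a basement membrane chain, rose 3.57-fold, from 1050 ± 267 to 3680.2 ± 366 (SD, n = 3 per population; limma adjusted p = 0.000265). COL7A1, the anchoring fibril collagen, rose 1.97-fold (log2 fold change 0.98, limma adjusted p = 0.000363), or by 0.57 on the log2 scale after length/GC correction.

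Among 19 genes of collagen hydroxylation, glycosylation and folding, 6 rose, 1 fell and 12 did not pass, beside 21.8% of all genes higher and 21.6% lower. The median log2 fold change was 0.14. P4HA2, a catalytic subunit of prolyl 4-hydroxylase, rose from 2394 ± 212 to 3564 ± 168 and P3H4, a partner of the lysyl hydroxylase complex, from 946 ± 134 to 1679 ± 110 (SD, n = 3 per population), while TMEM38B, an endoplasmic reticulum cation channel needed for collagen modification, fell by 0.90 on the log2 scale, or by 0.55 after length/GC correction. SERPINH1, the collagen chaperone HSP47, was at -0.17 (limma adjusted p = 0.129). Of 7 genes of procollagen export 3 rose and 1 fell. MIA3, the cargo receptor TANGO1, rose by 0.36 and SEC24D, a coat protein, by 0.29, and SAR1B, the GTPase of the coat, fell by 0.24 on the log2 scale. This count rested on single libraries: 0 rose and 1 fell without replicate 1 of CD104low, and 1 rose and 1 fell when replicate 1 of CD104high or replicate 3 of CD104low was left out, or in limma without the trend. MIA3 alone had a limma adjusted p of 0.0525 to 0.0651 without replicates 1 or 2 of CD104high or replicates 1 or 3 of CD104low, and SEC24D one of 0.057 without replicate 1 of CD104low.

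Of 11 genes of propeptide removal and crosslinking tested, 6 rose and 1 fell. LOXL4, a lysyl oxidase that crosslinks collagen, rose 2.44-fold, from 1139 ± 43.9 to 2784 ± 111 (SD, n = 3 per population; limma adjusted p = 0.000126), and BMP1, the procollagen C-proteinase, rose by 0.59 on the log2 scale, or by 0.37 after length/GC correction. PCOLCE2, an enhancer of that proteinase, fell by 0.44 (limma adjusted p = 0.0393), a call that did not hold without any 1 of 5 libraries, namely replicates 2 and 3 of CD104high and each CD104low replicate (0.054 to 0.131), with upper quartile scaling (0.0595) or after length/GC correction (0.092). The list gave 4 rises and 0 falls without replicate 2 of CD104high and 3 and 0 without replicate 1 of CD104low. Among 8 tested proteins that bind fibrils, 5 rose and 0 fell, or 3 and 0 without replicate 1 of CD104low or in limma without the trend. Fibronectin (FN1) rose 2.87-fold and TNXB, a tenascin that binds fibrils, 2.15-fold (1.10 on the log2 scale, and 0.62 after length/GC correction).

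Collagen receptors gave 7 rises and 0 falls among 10 tested, with a median log2 fold change of 0.76. DDR1, a receptor tyrosine kinase for collagen, rose 2.12-fold, from 2246 ± 355 to 4723 ± 265, and ANTXR1, a receptor for collagen VI and other matrix proteins, 1.68-fold, from 4504 ± 243 to 7573 ± 555 (SD, n = 3 per population; limma adjusted p = 0.000312 and 0.000309). Of 6 tested collagen-degrading proteases and their inhibitors 5 rose and 0 fell: MMP14, a membrane-bound collagenase, rose by 0.51 on the log2 scale (0.34 after length/GC correction) and TIMP2, which inhibits metalloproteinases and takes part in MMP2 activation by MMP14, by 0.73. MMP8, TIMP1 and TIMP3 also rose, and MMP1, MMP2, MMP9, MMP13 and FAP were not found in the table. Of 21 tested regulators of collagen genes 11 rose and 4 fell, or 6 and 3 after length/GC correction. RUNX2, a factor of skeletal collagen genes, rose 1.88-fold and TGFBR2, the type II TGF-beta receptor, 1.59-fold, while ETS1 fell by 0.43 and YBX1, a Y-box protein that can repress COL1A2, by 0.54 on the log2 scale. Over all these lists 102 genes outside the 8 chains were tested, of which 52 rose and 7 fell, beside 21.8% and 21.6% of all genes tested. The median log2 fold change was 0.36 over these 102 genes and 0.02 over all genes tested. After length/GC correction 49 of them rose and 10 fell, with a median of 0.31. The lists, like the chains, were chosen with earlier results of these data known, so nothing is read from these counts.

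**Figure D5:**
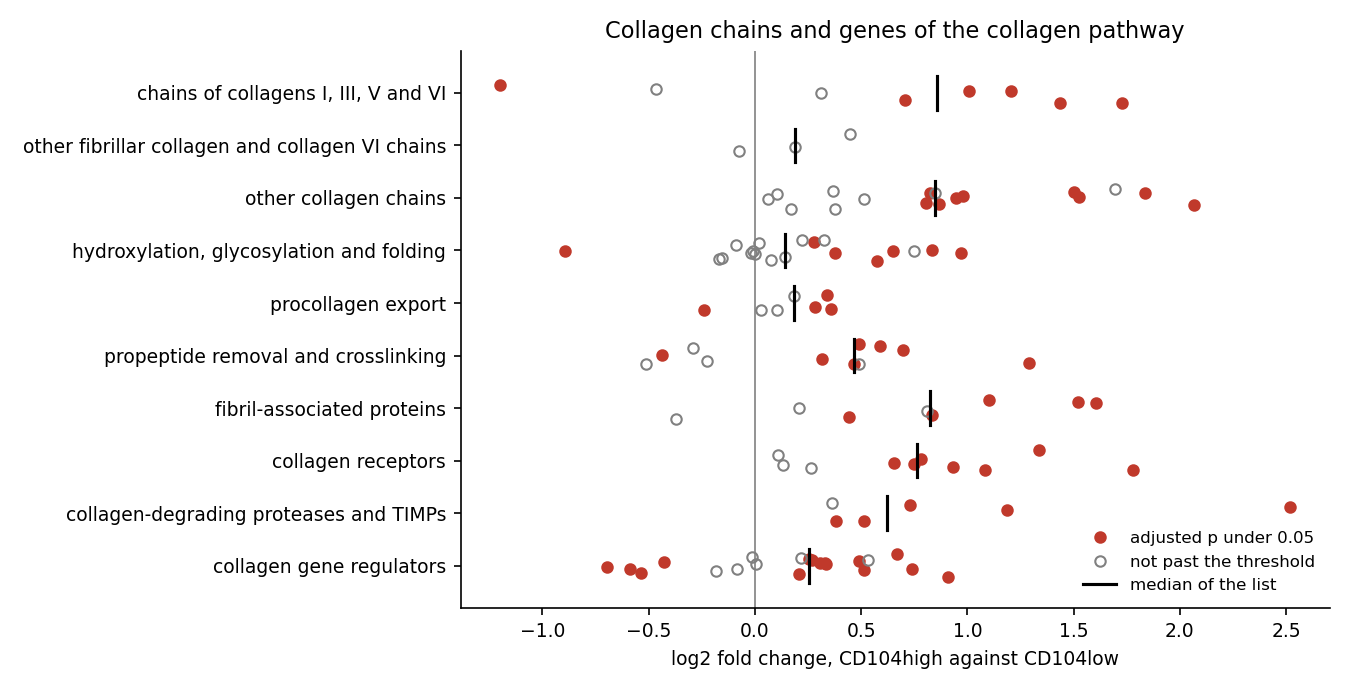
Log2 fold change of CD104high against CD104low (horizontal axis) of the 8 chains and of the tested genes of each pathway list; filled points passed limma's adjusted p of 0.05, open points did not, and black bars are list medians. The 8 chains have a median of 0.86, collagen receptors one of 0.76, and the hydroxylation and folding genes one of 0.14.

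Fibroblasts are the usual makers of these collagens, and 8 of 12 fibroblast markers were in the table. Their sum was 30827 to 44629 in CD104high and 16349 to 20553 in CD104low, most of it S100A4, which carcinoma cells also make. Of 5 tested, 4 rose and 0 fell, with a median log2 fold change of 1.07. PDGFRB, a growth factor receptor, lay between 1767 and 2728 in CD104high and between 861 and 1369 in CD104low. LUM, the fibril-binding proteoglycan lumican, was at 97.1 to 359 and 40.4 to 56.3, PI16 at 38.5 to 61.8 and 8.05 to 27.3, and S100A4 at 28448 to 41447 and 15380.2 to 19072. ACTA2, at 39.7 to 53.1 and 20.2 to 38.2, did not pass (limma adjusted p = 0.107). The fibroblast genes PDGFRA (4.41 to 6.08 in CD104high, 2.01 to 4.04 in CD104low), DCN (3.04 to 5.49 and 2.01 to 11.2) and THY1 (1.01 to 3.53 and 4.49 to 13.1) rested on 1 to 13 reads per library. The 3 leukocyte markers in the table, of 10, summed to 688 to 939.9 in CD104high and 331 to 410.5 in CD104low. Both of those tested rose: LAPTM5 was at 380.4 to 561 and 175 to 225, and CD14 at 278 to 375 and 145 to 208. FCER1G, at 4.06 to 9.71 and 5.62 to 11.1, was below the filter. The 4 endothelial markers, of 7, summed to 75.1 to 126 and 61.3 to 104, and KDR, the 1 tested, did not pass. The part of these genes in the collagen differences was not tested.

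Across the 6 libraries, the genes outside the family with log2 values most like those of COL5A1, among 12503 with a mean of at least 50, were ZKSCAN1, KIAA1217 and ECM1 (Pearson r of 0.9995, 0.9992 and 0.99902). Those most like COL3A1 were NUP107, SMAD5 and POLR2B (0.997, 0.997 and 0.996). With 2 populations of 3 libraries, such values mostly reflect a shared difference between the populations. Their log2 fold changes were 0.65, 1.597 and 0.91 for the first set and -0.34, -0.23 and -0.27 for the second.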

How the data were processed

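RNA of 6 libraries was analysed, 3 per population, with groups taken from the labels. Per the submitters' processing notes, FastQC, Salmon 1.3.0 and DESeq2 were used with GRCh38 (hg38), with no order given. The authors deposited a scaled read signal per library and gene, a log2 fold change with its standard error and its p-value, raw and adjusted. Each signal value was a whole multiple of 1 step per library (100% within 0.01), so whole reads were recovered for the count tests used as alternatives (edgeR 4.0.16, DESeq2 1.42.0). That step was 1.01, close to 1, in CD104high replicate 3 and in CD104low replicates 1 and 2.

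The main test was limma 3.58.1 with a trend, in R 4.3.3, on log2(value + 1), which understates changes of low genes. Genes were tested where 3 or more libraries reached 10 scaled reads, and all 8 chains passed. Its p-values set the difference between the populations against the spread between these libraries. The variance of each gene was drawn towards a trend over all genes. Replicates differed beyond sampling noise (chi-square per degree of freedom 12.7 to 44.6). Positions, lengths and GC content came from GENCODE 29, matched by identifier for 99.8% of genes. Alternatives were other scalings, filters, pseudocounts and tests, a length and GC correction, a replicate block and leaving out each library.

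The chains and the pathway lists were chosen with earlier results of these data known. Named genes were the 8 chains, any other fibrillar or collagen VI chain in the table, the 2 genes with the smallest p in each direction of each pathway list among those past the threshold, and the 3 genes most like COL5A1 and COL3A1. Others were named to spell out a small count or a marker, and SERPINH1 after its value was seen. How reads shared by similar transcripts were divided, the annotation release and the strand setting: not given in the sources used here. For 1 chain the repeat sequence is not reported here.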

Additional observations from a re-analysis of the deposited data

How the results depend on the processing

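COL5A1, COL6A1, COL6A2, COL6A3, COL1A2 and COL3A1 kept their direction and call in all 18 alternatives run, with log2 fold changes of 1.05 to 1.53, 0.79 to 1.09, 0.54 to 0.85, 0.84 to 1.51, 1.48 to 2.02 and -1.46 to -1.11. COL1A1 was -0.023 with the length and GC correction, with or without the replicate block; the cause was not tested. Leaving out 1 library gave 4097 to 6390 calls over all genes, 6 to 7 among the 8 chains and 40 to 55 among the pathway genes. Without the correction, 6257 genes were called, and 5844 with it.

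The shared replicate numbers did not pair the libraries by the rule used, which sets a minimum r for every number. Libraries of the same number deviated together with r of 0.08, 0.36 and 0.32, and number 1 fell short of that minimum. Each library nevertheless correlated best with its own number. With the replicate block 7876 genes were called, 8 of the 8 chains (6 higher, 2 lower) and 68 pathway genes (58 higher, 10 lower). COL1A1 and COL5A2 then passed (adjusted p = 0.0122 and 0.0464, limma). The list of hydroxylation, glycosylation and folding gave 8 rises and 3 falls with the block. With the block and the length and GC correction together it gave 9 and 3, and procollagen export gave 6 and 1. Values of COL3A1 and COL5A2 rest on 74 to 189 reads per library, so small differences between them are not resolved.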

Other observations

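Genes next to the chains were read out after the values of the chains had been seen. Around COL3A1 and COL5A2 on chromosome 2, within 500000 bases on either side, 5 other genes were in the table. WDR75, a ribosome biogenesis factor, was lower in CD104high (log2 fold change -0.83, limma adjusted p = 0.000307), as was ASNSD1 (-0.74, 0.00111). SLC40A1, which encodes the iron exporter ferroportin, was higher (1.00, limma adjusted p = 0.0005), from 433 to 871 scaled reads. ANKAR (-0.35, limma adjusted p = 0.0672) and GULP1 (-0.027, 0.903) did not pass. The neighbours of the pair thus moved in both directions.

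COL6A1 and COL6A2 lie 93046 bases apart near the end of chromosome 21, both on the plus strand. The window of 500000 bases around them held a further collagen gene, COL18A1, at 12227 in CD104high and 6868 in CD104low (log2 fold change 0.82, limma adjusted p = 0.00218). It also held LSS, the lanosterol synthase of cholesterol synthesis (0.70, limma adjusted p = 0.000417), C21orf58 (0.72, 0.00226), PCNT, the centrosome protein pericentrin (0.54, 0.00199), and DIP2A (0.57, 0.00237), which were higher as well. MCM3AP was also called higher (0.26, limma adjusted p = 0.016). Over all genes tested, the background for both windows, 21.8% were called higher and 21.6% lower. Whether the neighbours share a cause with the chains was not tested. SLC19A1, PCBP3, SPATC1L, MCM3AP-AS1 and YBEY did not pass, and FTCD was below the filter on low values. MCM3AP and MCM3AP-AS1 overlap, and without a stated strand setting their reads cannot be told apart.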
